A study of Mus musculus with 6 samples.

Results

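The transcripts of 5 genes that encode ligands of T cell checkpoint and costimulatory receptors were followed in mouse skin: Cd274 (PD-L1), Pdcd1lg2 (PD-L2), Cd80 (B7-1), Cd86 (B7-2) and Lgals9 (galectin-9). They were taken by name, 5 of the 16158 genes measured, and described in keratinocytes, macrophages, dendritic cells, fibroblasts and T cells. The study profiled single cells from 4-OH-Tam-treated skin of 6 NINJA mice aged 6 to 12 weeks, with a 10x Genomics 5' kit. NINJA is a strain in which tamoxifen-type drugs can turn on a neoantigen. The groups were NO_AG (antigen off), AG (antigen on) and AG_CPI (antigen on with CPI), with 2 mice each. All 3 groups shared the strain and the drug-treated site. The labels do not name the CPI agent and give no sex, batch or date. Before sequencing, each mouse had been checked for visible skin disease and for P14 cells in the skin (CD8 T cells with a transgenic receptor), so each group was already known to show its phenotype.

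PD-L1 and PD-L2 bind PD-1 on T cells and dampen signals from the antigen receptor. CD80 and CD86 bind CD28, which adds to activation, and CTLA-4, which opposes it, and CD80 can also pair with PD-L1 on one cell. Galectin-9 is a sugar-binding protein and a described partner of TIM-3. In skin, dendritic cells and macrophages are the usual carriers of CD80 and CD86, PD-L1 is known to be inducible by interferon-gamma in many cell types, and activated mouse T cells can carry B7 ligands themselves.

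Cd274 lies on the plus strand of chr19:29367455-29388095 in GRCm38 with GENCODE M21 gene models, and Pdcd1lg2 follows 22823 bases downstream at chr19:29410919-29471161, on the same strand. Cd80 lies on the plus strand at chr16:38455561-38496335 and Cd86 on the minus strand at chr16:36603869-36666081. Lgals9 lies on the minus strand at chr11:78962974-78984946. RefSeq promoter sequences (GRCm38.p6) were found for 4 of the 5 genes, all but Cd86. They are shown because the AG_CPI change of Cd274 and Cd80 in dendritic cells was called and that of Lgals9 was not. Each is read 5' to 3' on the gene's own strand. Those of Cd274 and Cd80 end at the base before the RefSeq start, and that of Lgals9 ends 22 bases short of it. Capitals mark matches to 3 short motifs searched on both strands, where N is any base: GAAA-NN-GAAA (an interferon response element), TTCNNNGAA (a STAT site) and GGGAA-NNN-CC (an NF-kappaB site).
Cd274 promoter, chr19:29367188-29367437, plus strand: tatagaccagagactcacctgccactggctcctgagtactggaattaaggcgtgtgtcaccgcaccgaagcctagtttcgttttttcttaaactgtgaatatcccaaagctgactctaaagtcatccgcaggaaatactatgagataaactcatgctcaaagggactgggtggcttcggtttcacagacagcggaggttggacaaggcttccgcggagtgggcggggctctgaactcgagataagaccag
Cd80 promoter, chr16:38458683-38458932, plus strand: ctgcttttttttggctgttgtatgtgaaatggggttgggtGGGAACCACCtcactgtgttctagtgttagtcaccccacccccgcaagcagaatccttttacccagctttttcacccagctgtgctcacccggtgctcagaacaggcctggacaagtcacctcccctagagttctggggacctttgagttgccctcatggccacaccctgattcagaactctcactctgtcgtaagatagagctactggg
Lgals9 promoter, chr11:78984947-78985174, minus strand: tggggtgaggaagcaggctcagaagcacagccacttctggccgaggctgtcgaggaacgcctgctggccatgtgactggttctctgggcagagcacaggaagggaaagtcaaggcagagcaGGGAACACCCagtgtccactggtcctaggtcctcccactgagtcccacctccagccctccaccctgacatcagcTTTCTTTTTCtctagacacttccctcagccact
Cd80 held 1 match, GGGAACCACC, beginning 210 bases before the start. Lgals9 held GGGAACACCC, beginning 129 bases before the start, and TTTCTTTTTC, a match to the interferon element on the opposite strand, beginning 55 bases before it. The windows of Cd274 and Pdcd1lg2 held no match to these letters. Among 32851 promoter windows of 250 bases, 2.98% held the interferon element, 7.02% the STAT site and 4.94% the NF-kappaB site. The Cd80 window begins inside the gene span of the GENCODE model, because the RefSeq start lies downstream of the GENCODE one. The Lgals9 window is 228 bases long, after 22 bases that fall in an exon of the gene had been left out.

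Libraries held 1736 to 4972 cells and 5903724 to 24656382 UMIs (unique molecular identifiers, 1 per captured transcript), with median UMIs per cell of 2527 to 4744. AG_CPI mouse 1 stood apart from the other 5: it alone had UMIs of the Y-linked gene Ddx3y (129), and 2.70% of its cells outside the T cells had a UMI of Xist, against 66.9% to 84.7% in the others. Library pairs shared 5 to 35 cell barcodes, at most 0.86% of the smaller library. Cells were clustered without the 5 genes and named from marker genes, with the ending "-like" because no cell annotation was used. Cell numbers per mouse in the order NO_AG 1, NO_AG 2, AG 1, AG 2, AG_CPI 1 and AG_CPI 2, which holds throughout, were 25, 18, 171, 552, 237 and 209 for monocyte/macrophage-like cells and 246, 144, 57, 117, 27 and 26 for dendritic/Langerhans-like cells. Keratinocyte-like cells numbered 2129 and 1729 in NO_AG mice, 1067 and 1755 in AG mice and 187 and 225 in AG_CPI mice, and fibroblast-like cells numbered 127, 62, 55, 27, 8 and 7. The alpha-beta T-like class held 247 and 481 cells in NO_AG mice and 931 to 1236 in the other mice. These numbers were not tested. A level is the mean over cells of UMIs per 10000 UMIs of the cell. Levels of different genes are not compared, since capture differs between transcripts.

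Among the 5 compared classes, the ones with the highest mean level differed by gene. Cd86 was highest in dendritic/Langerhans-like cells in all 3 groups, at 1.58 ± 0.206, 2.78 ± 1.02 and 3.40 ± 0.136 UMIs per 10000 in NO_AG, AG and AG_CPI mice (SD, n = 2). In NO_AG mice its range there overlapped that of the macrophages. Of the 5 classes, monocyte/macrophage-like cells had the most Cd274 in AG (1.05 ± 0.516) and AG_CPI mice (1.34 ± 0.197). In AG_CPI mice the dendritic/Langerhans-like level of Cd274 (0.965 ± 0.496) overlapped the macrophage one. Lgals9 in AG mice was 2.07 ± 0.138 in macrophages and 1.86 ± 0.180 in keratinocytes, whose ranges overlapped, and 1.66 ± 0.0152 in alpha-beta T-like cells, just below both. Fibroblast-like cells had 3 UMIs of Cd274, 1 of Cd80, 1 of Cd86 and 0 of Pdcd1lg2 in the NO_AG and AG libraries together, from 27 to 127 cells per mouse, too few for a comparison of those 4 genes.

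**Figure D1:**
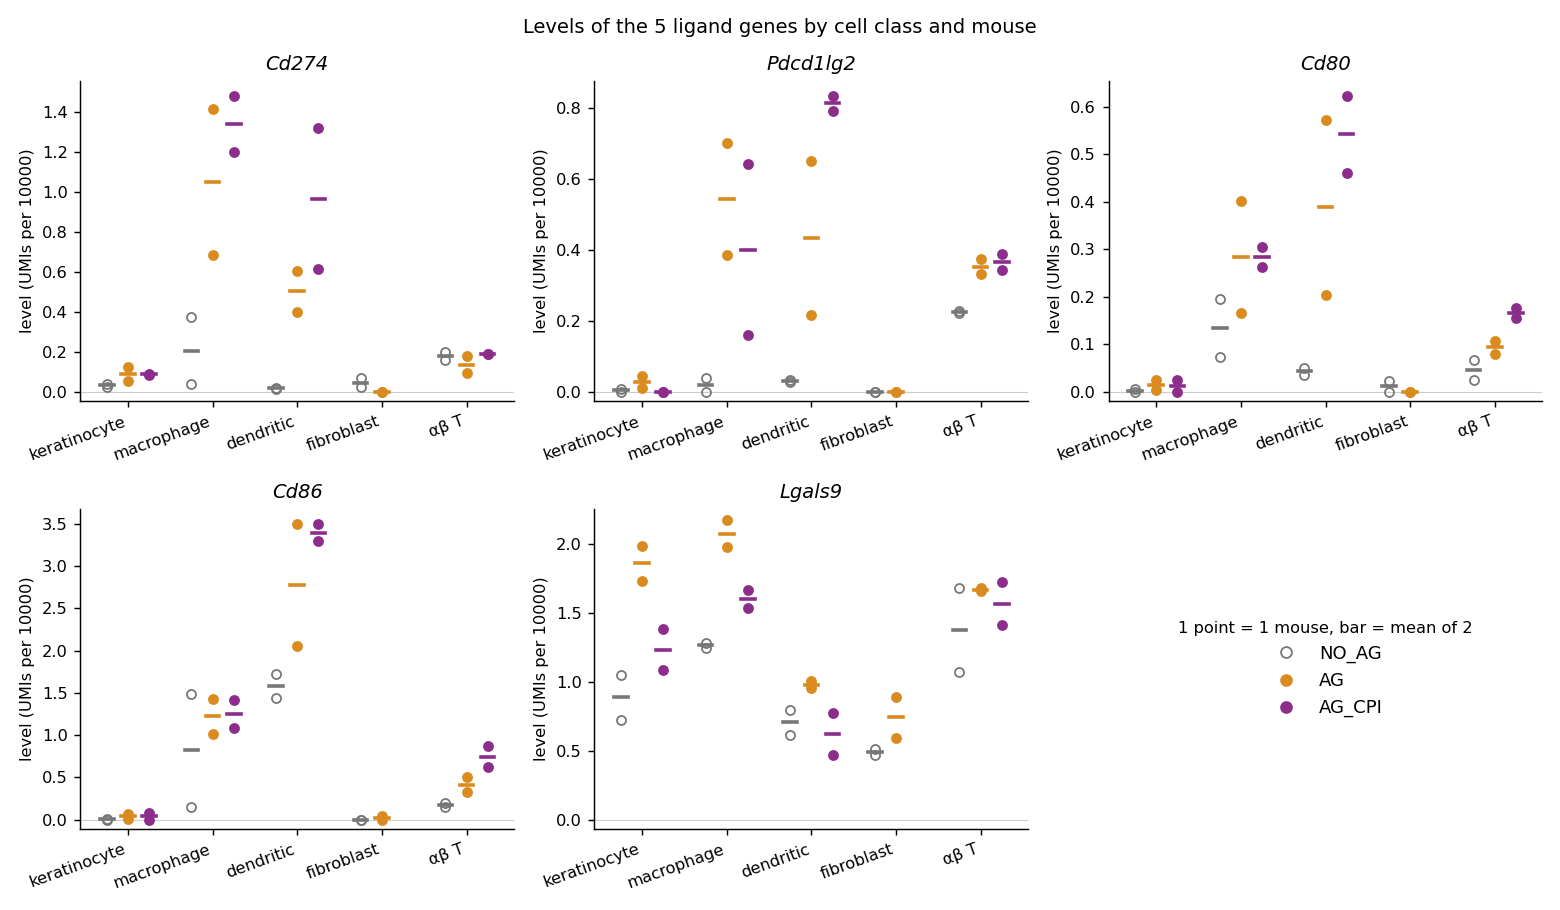
Level of each gene (UMIs per 10000, y axis) in 5 cell classes (x axis); each point is 1 mouse with at least 10 cells of the class and each bar the mean of 2 mice. Cd86 is highest in dendritic cells in every group, Cd274 of AG and AG_CPI mice is highest in macrophages, and Lgals9 is spread over all 5 classes.

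Where a gene's UMIs sat also depended on how many cells of each class a mouse had. Monocyte/macrophage-like cells held 1.2% and 0.8% of the Cd274 UMIs of the NO_AG libraries, then 27.6% and 56.4% in the AG libraries, and 69.9% and 51.8% of those with CPI. Keratinocyte-like cells held 19.0% and 26.2% of them in NO_AG and 1.8% and 2.5% in AG_CPI. Dendritic/Langerhans-like cells held 89.1% and 77.4% of the Cd86 UMIs in NO_AG mice but 15.3% and 12.6% in AG_CPI mice, where alpha-beta T-like cells held 45.2% and 54.4%. The main holders of Cd274 and Cd86 transcripts thus differed between NO_AG and AG_CPI skin in both mice of each group.

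**Figure D2:**
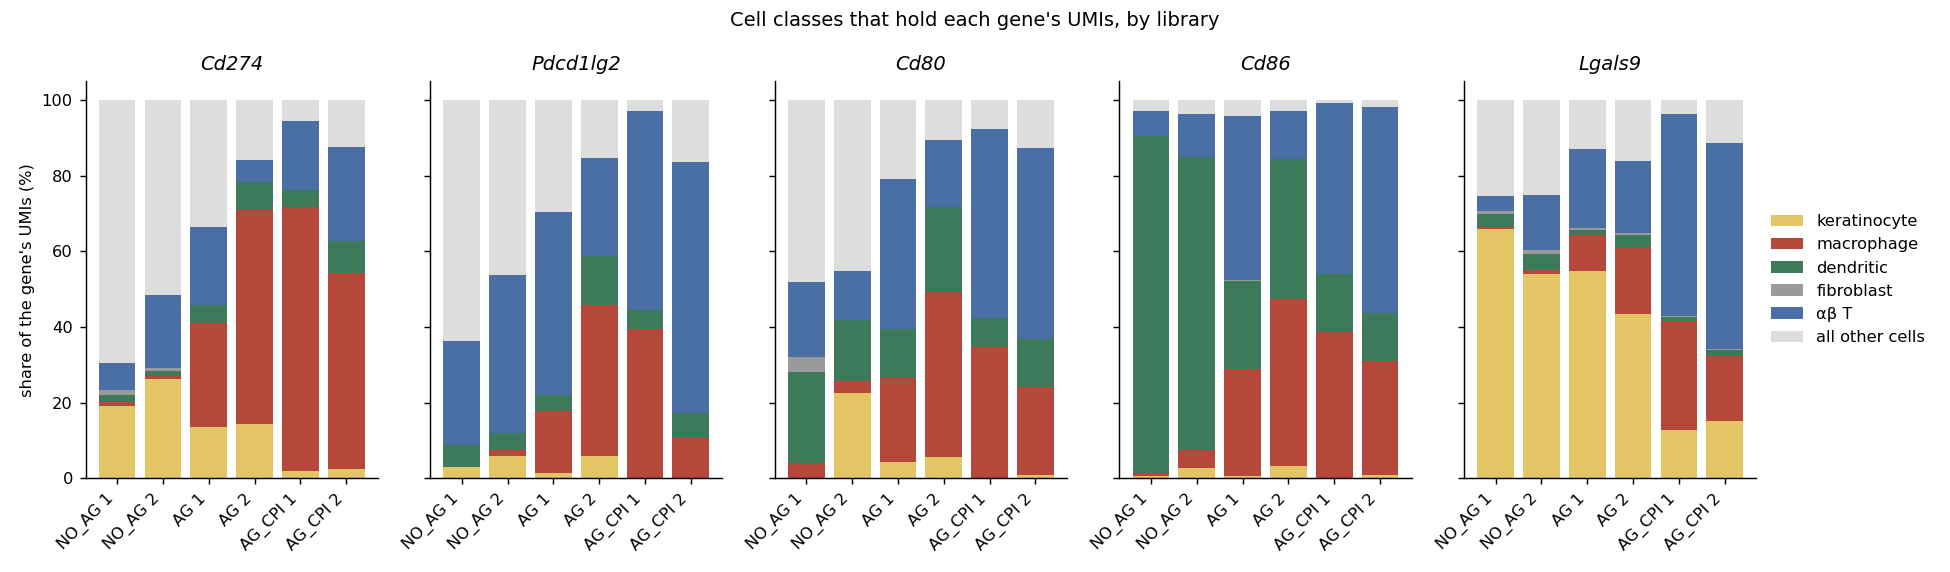
Share of each gene's UMIs (%, y axis) by cell class, for the 6 libraries (x axis); the colours are the 5 classes and all other cells. Macrophages hold 1.2% and 0.8% of Cd274 UMIs in NO_AG libraries and 69.9% and 51.8% in AG_CPI libraries.

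Cd274, the gene of PD-L1, had few UMIs in the dendritic/Langerhans-like class of NO_AG mice and higher levels in both other groups. The levels were 0.0160 and 0.0219 in NO_AG mice, 0.400 and 0.603 in AG mice and 0.614 and 1.32 in AG_CPI mice. They rested on 3, 2, 13, 39, 12 and 23 UMIs. Both AG mice and both AG_CPI mice lay above both NO_AG mice, and the AG and AG_CPI values nearly met. By limma with Benjamini-Hochberg adjustment over 6748 genes, the log2 change on the log2(level + 0.1) scale was 2.34 (SE 0.42, adjusted p = 0.0134) for AG against NO_AG and 3.26 (SE 0.42, adjusted p = 0.000741) for AG_CPI against NO_AG. Cd274 passed the filter on low values only through the AG and AG_CPI mice. With all genes that had a UMI in 2 libraries tested instead, the AG_CPI change was called (adjusted p = 0.00673) and the AG change was not (0.0602). The changes understate the ratio, because a pseudocount weighs on low levels: pooled UMIs gave ratios of 16.0 (95% exact interval of counting error 6.42 to 51.2) and 35.5 (13.9 to 116). AG_CPI against AG was 0.92 (95% interval -0.02 to 1.85, limma adjusted p = 0.312). The share of dendritic/Langerhans-like cells with a Cd274 UMI was 1.22%, 1.39%, 15.8%, 23.1%, 25.9% and 42.3%, at median depths of 4266 to 9011 UMIs. With every cell thinned to 1500 UMIs it was 0.813%, 0%, 7.02%, 6.84%, 7.41% and 7.69%, which kept NO_AG mice lowest and left AG and AG_CPI mice alike.

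Of the 5 ligands in dendritic/Langerhans-like cells, 2 were called for AG against NO_AG (Cd274 and Pdcd1lg2), where 4.33% of all tested genes were called. For AG_CPI against NO_AG, 4 were called, all but Lgals9, where 18.1% of genes were called. None was called for AG_CPI against AG, where 0.578% of genes were and 1 ligand, Pdcd1lg2, had an unadjusted limma p under 0.05. Cd274, Pdcd1lg2 and Cd80 passed the filter on low values only through the AG and AG_CPI mice, so nothing is read from the counts. Leaving out any 1 of the AG or NO_AG mice ended the AG call of Cd274 (limma adjusted p of 0.080 to 0.21), and the AG_CPI values were 0.00049 to 0.0061 without 1 of the AG_CPI or NO_AG mice. Such a fit leaves a group with 1 mouse, which is assumed to vary like the mice of the other groups. Without AG_CPI mouse 1, the library that stood apart, the AG_CPI changes were 3.82 for Cd274, 3.09 for Pdcd1lg2, 2.59 for Cd80 and 1.48 for Cd86 (limma adjusted p = 0.000491, 0.0046, 0.00799 and 0.0135).

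**Figure D3:**
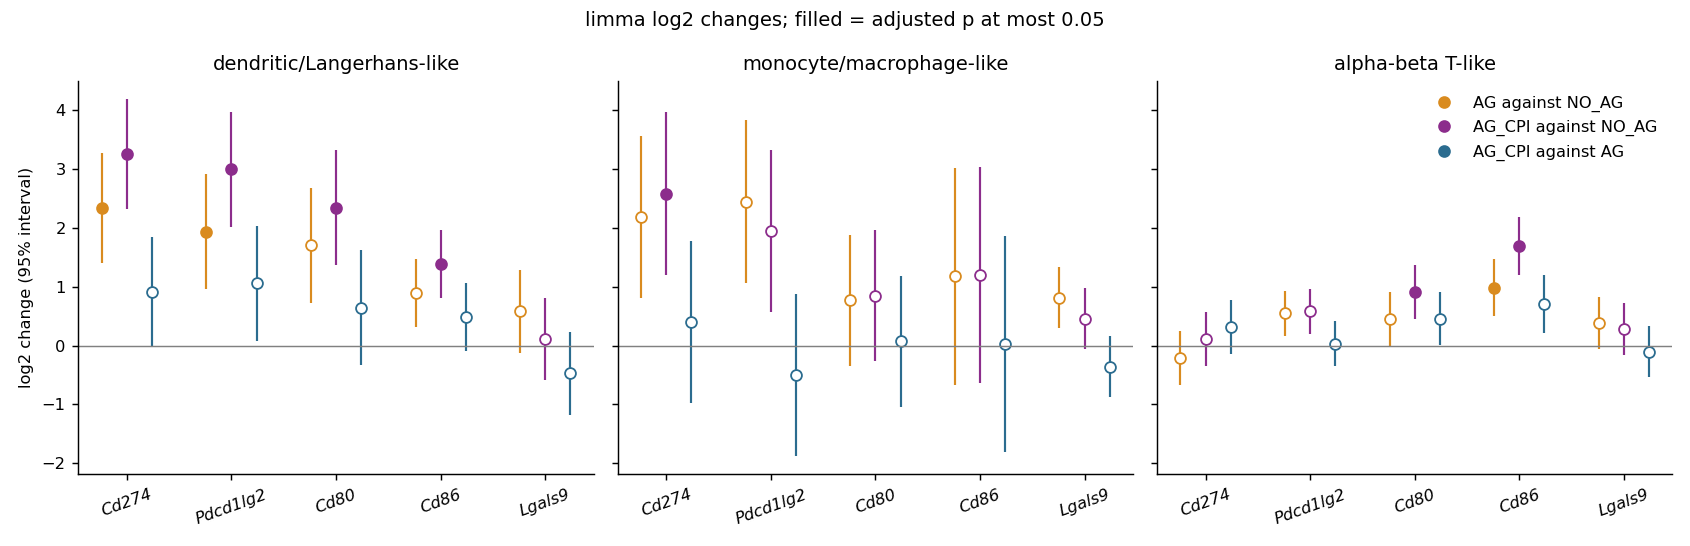
limma log2 changes of the 5 genes (y axis, bars are 95% intervals) in dendritic, macrophage and alpha-beta T cells, for 3 comparisons; filled points have an adjusted p of at most 0.05. In dendritic cells the Cd274 change against NO_AG is 2.34 in AG and 3.26 in AG_CPI mice, and every interval of Cd274, Cd80, Cd86 and Lgals9 for AG_CPI against AG reaches 0 or below there.

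The dendritic/Langerhans-like class was not made of the same cells in the 3 groups. Clusters led by both Cd207 and Ltc4s, genes of Langerhans cells, here called Langerhans clusters, made up 216 of 246 and 129 of 144 dendritic cells in NO_AG mice, 33 of 57 and 29 of 117 in AG mice and 0 of 27 and 0 of 26 in AG_CPI mice. The rest were a Cd209a-led, an Xcr1- and Wdfy4-rich and a Ccr7- and Fscn1-led cluster. The Xcr1-rich cluster (15, 10, 9, 16, 11 and 11 cells) also had Cd207 as its first gene, without Ltc4s among its 10 leading genes, and was not counted as Langerhans. In NO_AG mice the 216 and 129 Langerhans cells held 0 Cd274 UMIs, a count that allows shares of up to 1.39% and 2.33%. In AG mice they held 1 UMI in 33 cells and 2 in 29. Within AG mouse 2, the one library with at least 10 cells of each, the Cd274 level was 0.998 in the Ccr7-led, 0.833 in the Cd209a-led and 0.329 in the Xcr1-rich cluster.

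Outside the Langerhans clusters, the Cd274 levels were 0.131, 0.210, 0.876, 0.771, 0.614 and 1.32. AG and AG_CPI mice still lay above NO_AG mice, from 30 and 15 cells per NO_AG mouse. The log2 change there was 1.80 for AG (limma adjusted p = 0.066) and 1.94 for AG_CPI (adjusted p = 0.036) against NO_AG, and the pooled UMI ratios were 3.78 (1.51 to 12.1) and 5.66 (2.21 to 18.5). The ratio over the whole class was thus several times that in the clusters outside the Langerhans ones, and the share of Langerhans cells moved with it. The summed level of 16 macrophage markers in the class was 16.0, 12.5, 27.2, 30.3, 24.6 and 15.9, from 13 to 15 detected markers, against 177 to 410 in macrophages. Mrc1, Ccr2 and Pf4 were at 0 in AG_CPI mouse 2, and the part of these markers in the result was not tested.

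**Figure D4:**
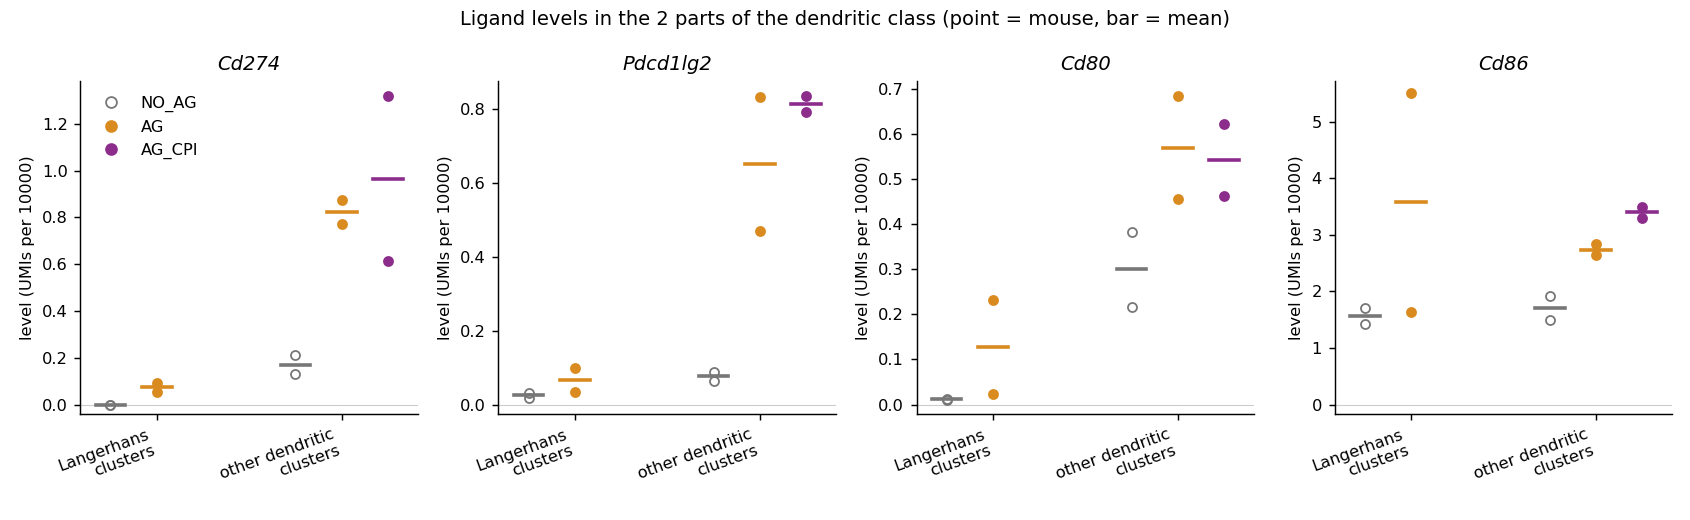
Levels of Cd274, Pdcd1lg2, Cd80 and Cd86 (UMIs per 10000, y axis) in the Langerhans clusters and the other dendritic clusters (x axis); each point is 1 mouse and each bar a mean, and AG_CPI mice had 0 Langerhans cells. Cd274 of the other clusters is 0.131 and 0.210 in NO_AG mice and 0.614 to 1.32 in the AG and AG_CPI mice. Cd80 of both NO_AG mice also lies below all other mice there, and its AG and AG_CPI ranges overlap.

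In monocyte/macrophage-like cells the Cd274 levels were 0.374, 0.0401, 0.684, 1.41, 1.48 and 1.2. All 4 AG and AG_CPI mice lay above both NO_AG mice, whose values rest on 2 UMIs in 25 cells and 1 in 18. Cd274 entered the test through the AG and AG_CPI mice alone. Its AG_CPI against NO_AG change of 2.58 (SE 0.58, limma adjusted p = 0.0456) was just under the threshold, and did not pass without the filter on low values (adjusted p = 0.088). It was the 1 ligand of 5 called there, where 7.59% of tested genes were called, and nothing is read from that count. The AG change of 2.19 (SE 0.58, adjusted p = 0.0702) missed the threshold, and 0 of 5 ligands were called for AG against NO_AG, where 6.12% of genes were and 3 ligands had an unadjusted limma p under 0.05. For AG_CPI against AG 0 of 5 were called, 0 had an unadjusted p under 0.05, and 0% of genes were called. The pooled UMI ratios were 5.26 (1.79 to 25.6) and 6.36 (2.16 to 31.0). Pdcd1lg2, Cd80 and Cd86 too passed the filter only through AG and AG_CPI mice. Leaving out single mice moved the number of ligands called between 0 and 5 for AG and between 0 and 4 for AG_CPI, with 5 called without NO_AG mouse 2. Without AG_CPI mouse 1 the AG_CPI change of Cd274 was 2.43 (limma adjusted p = 0.328), and without AG_CPI mouse 2 it was 2.72 (0.265). The summed level of 20 dendritic markers in the macrophage class was also higher in the AG and AG_CPI mice, at 458, 540, 896, 634, 700 and 739, from 14 to 20 detected markers. Xcr1 was at 0 in all but AG_CPI mouse 1, and the part of these markers in the result was not tested.

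Cd274 was unevenly spread over the macrophage clusters. An Mmp12- and Cxcl9-rich cluster had 1.80, 1.99, 1.99 and 1.39 UMIs per 10000 in the AG and AG_CPI mice. The cluster led by Retnla, Folr2 and Mrc1, genes of resident-type macrophages, was the one macrophage cluster with at least 10 cells in each NO_AG mouse (17 and 13). Within it the levels in NO_AG and AG mice were 0.549, 0, 0.0717 and 0. The macrophage comparison with NO_AG thus set mostly different clusters against each other.

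In keratinocyte-like cells Cd274 was sparse, at 0.0234, 0.0410, 0.0544, 0.125, 0.0857 and 0.0908 UMIs per 10000, from 32, 34, 37, 76, 5 and 7 UMIs. Both AG and both AG_CPI mice were above both NO_AG mice, but the gene did not pass the filter on low values and was not tested by limma. The pooled UMI ratio was 2.89 (2.11 to 3.98) for AG and 2.18 (1.07 to 4.06) for AG_CPI against NO_AG, with counting error alone in the interval. Different keratinocyte clusters held much of the class: one had 555 and 361 of the NO_AG cells and at most 53 in any other mouse, and another had 448 cells of AG mouse 2 and at most 3 in a NO_AG mouse. In the 4 clusters with at least 10 cells in all 6 libraries, both AG mice were above both NO_AG mice in 2, and the AG_CPI mice overlapped the NO_AG mice in all 4. An exact permutation test of 2 against 2 mice cannot give a p below 0.33. The share of keratinocytes with a Cd274 UMI was 1.27%, 1.85%, 3.47%, 3.82%, 2.14% and 3.11%. After thinning to 1500 UMIs it was 0.329%, 0.694%, 0.562%, 1.88%, 0.535% and 0.889%, where the groups overlapped. Dendritic markers in the keratinocyte class were higher in the same mice: 20 dendritic markers, of which 8 to 20 were detected per mouse, summed to 3.27, 5.86, 8.91, 28.3, 12.8 and 19.1, highest in AG mouse 2, which also had most Cd274. Cd207 was at 0 in both AG_CPI mice and Cd209a in every mouse but AG mouse 2. The 16 macrophage markers, 13 to 16 of them detected, summed to 57.1, 43.9, 57.2, 38.3, 33.6 and 36.9. The part of both lists in the result was not tested.

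In alpha-beta T-like cells the Cd274 levels were 0.161, 0.202, 0.178, 0.0952, 0.190 and 0.191. The groups overlapped, with AG mouse 2 lowest. The limma log2 change was -0.20 (95% interval -0.66 to 0.25, adjusted p = 0.677) for AG and 0.11 (-0.35 to 0.57, adjusted p = 0.823) for AG_CPI against NO_AG. Gamma-delta T-like cells showed another order, with 0.161 and 0.156 without antigen, 0.562 and 0.523 with it and 1.08 in the 18 cells of AG_CPI mouse 2. Both AG mice were above both NO_AG mice; the class was outside the comparisons and was not tested. Different clusters held most of it: one had 357 and 204 of the NO_AG cells and 23 and 3 of the AG cells, another 125 and 109, and 212 and 108.

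Pdcd1lg2, the gene of PD-L2, followed Cd274 in dendritic/Langerhans-like cells. Its levels were 0.0268, 0.0345, 0.217, 0.650, 0.791 and 0.834, from 4, 3, 12, 50, 11 and 13 UMIs. NO_AG mice were lowest, AG mice spread widely and both AG_CPI mice lay above both AG mice. The AG_CPI against NO_AG change was 2.99 (SE 0.44, limma adjusted p = 0.00143). Pdcd1lg2 too passed the filter only through AG and AG_CPI mice, and without the filter this change was called as well (adjusted p = 0.0109). The AG change of 1.94 (SE 0.44, limma adjusted p = 0.0358) was called as well, but the call ended in 7 of 14 alternatives, among them leaving out AG mouse 2 or either NO_AG mouse (1.34 to 1.95, adjusted p of 0.22 to 0.27) and no filter (0.114). Pooled UMI ratios to NO_AG for AG and AG_CPI were 13.6 (6.22 to 35.2) and 17.4 (7.28 to 47.8). AG_CPI against AG was 1.06 (95% interval 0.08 to 2.03, limma adjusted p = 0.274). Outside the Langerhans clusters the levels were 0.0882, 0.0640, 0.469, 0.831, 0.791 and 0.834, and both calls held there (log2 2.06, limma adjusted p = 0.047, and 2.40, adjusted p = 0.013). In the gamma-delta T-like class, used as a background for free RNA, the share of cells with a Pdcd1lg2 UMI was 0.194%, 0.875%, 0% and 0.893% in NO_AG and AG mice, at median depths of 1934 to 2760 UMIs. In the few such cells of AG_CPI mouse 2 it was 5.56%, also after thinning to 1500 UMIs. The dendritic shares were 1.63%, 2.08%, 17.5%, 23.1%, 22.2% and 30.8%, at median depths of 4266 to 9011. Thinned to 1500 UMIs, the NO_AG shares were 0% and 1.39% in dendritic and 0% and 0.583% in gamma-delta T-like cells.

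In macrophages Pdcd1lg2 was 0, 0.0401, 0.384, 0.7, 0.641 and 0.161. The 4 AG and AG_CPI mice were higher than the NO_AG mice, whose class held 1 UMI in all, and AG_CPI mouse 2 was well under the other 3. The limma changes of 2.45 (95% interval 1.07 to 3.83, adjusted p = 0.0553) for AG and 1.94 (0.56 to 3.32, adjusted p = 0.0909) for AG_CPI did not pass. The Retnla-led cluster had 0.

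Alpha-beta T-like cells transcribed Pdcd1lg2 in every mouse, at 0.229, 0.222, 0.374, 0.331, 0.390 and 0.344, from 19 to 137 UMIs per mouse. Both NO_AG mice were below all 4 others. The differences missed the threshold, with log2 changes of 0.55 (95% interval 0.17 to 0.92, limma adjusted p = 0.137) for AG and 0.58 (0.20 to 0.96, adjusted p = 0.0748) for AG_CPI. Thinned to 1500 UMIs, 2.83%, 1.87%, 5.15%, 4.4%, 5.53% and 4.94% of cells had a UMI. Keratinocyte-like cells had 33 UMIs of Pdcd1lg2 in all, 23 of them in AG mouse 2.

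Cd80 in dendritic/Langerhans-like cells was 0.0359, 0.0511, 0.205, 0.572, 0.461 and 0.623, from 6, 5, 12, 44, 8 and 16 UMIs. NO_AG mice were below all others, and the AG and AG_CPI ranges overlapped. The AG_CPI against NO_AG change was 2.35 (SE 0.44, limma adjusted p = 0.00526), with a pooled UMI ratio of 11.1 (5.22 to 25.1). Cd80 passed the filter only through AG and AG_CPI mice, and without the filter the change was called as well (adjusted p = 0.0249). The AG change of 1.71 (95% interval 0.73 to 2.68, adjusted p = 0.0624) did not pass. Outside the Langerhans clusters the Cd80 levels were 0.217, 0.382, 0.455, 0.684, 0.461 and 0.623, and the AG_CPI change was 0.74 (limma adjusted p = 0.56). The call therefore ended when the Langerhans clusters, whose Cd80 level was 0.0117 ± 0.00134 in NO_AG mice (SD, n = 2), were left out. Within AG mouse 2 Cd80 was 0.856 in the Cd209a-led, 0.655 in the Ccr7-led and 0.109 in the Xcr1-rich cluster.

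Macrophage Cd80 was 0.0741, 0.196, 0.166, 0.401, 0.263 and 0.305, with overlapping groups and log2 changes of 0.77 (95% interval -0.34 to 1.88, limma adjusted p = 0.355) and 0.84 (-0.27 to 1.96, adjusted p = 0.313) against NO_AG. Alpha-beta T-like cells had 0.0674, 0.0246, 0.0798, 0.107, 0.177 and 0.156, lowest in NO_AG and highest in both AG_CPI mice. The AG_CPI against NO_AG change was 0.91 (SE 0.21, limma adjusted p = 0.0266, pooled UMI ratio 3.89 with counting interval 1.98 to 8.73). Cd80 passed the filter on low values there only through AG and AG_CPI mice, since the NO_AG mice held 5 and 4 UMIs, and without the filter the change was not called (adjusted p = 0.083). The call also ended when the comparison used shared clusters only (limma adjusted p = 0.43) or a per-cell gate (0.15), and when 1 of AG_CPI mouse 1, AG_CPI mouse 2 or NO_AG mouse 2 was left out (0.246, 0.128 and 0.091). The AG change was 0.45 (adjusted p = 0.311). Gamma-delta T-like cells held 1, 3, 1 and 0 Cd80 UMIs in 515, 343, 238 and 112 cells of NO_AG and AG mice, at median depths of 1934 to 2760 UMIs. Of the alpha-beta T-like cells, 1.62%, 0.832%, 2.97%, 3.54%, 4.24% and 4.45% had one, at 2280 to 2808 UMIs.

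Cd86, unlike Cd274, Pdcd1lg2 and Cd80, had many UMIs in dendritic/Langerhans-like cells of mice with the antigen off. Its levels were 1.44, 1.73, 2.06, 3.51, 3.30 and 3.49, from 60 to 298 UMIs. AG_CPI mice were above NO_AG mice, AG mouse 1 was close to the NO_AG mice and AG mouse 2 matched the AG_CPI mice. Cd86 rose in AG_CPI against NO_AG mice (log2 1.38, SE 0.26, limma adjusted p = 0.00542), and the AG change of 0.89 (95% interval 0.31 to 1.47, adjusted p = 0.1) did not pass. Pooled UMI ratios were 1.91 (1.64 to 2.21) and 2.09 (1.70 to 2.57). Outside the Langerhans clusters the AG_CPI change was 1.00 (adjusted p = 0.078), and leaving out NO_AG mouse 1 also ended the call (adjusted p = 0.068). Langerhans clusters, with 0 Cd274 UMIs in NO_AG mice, had Cd86 there at 1.43 and 1.71 UMIs per 10000. The 29 Langerhans cells of AG mouse 2 had 5.52, and those of AG mouse 1 had less. Thinned to 1500 UMIs, 17.5%, 21.5%, 24.6%, 39.3%, 37.0% and 42.3% of dendritic cells had a Cd86 UMI, in the same order of groups.

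Macrophage Cd86 was 0.149, 1.49, 1.02, 1.43, 1.08 and 1.41. The 2 NO_AG mice, with 2 and 9 UMIs, lay at both ends of the range. No comparison passed (log2 1.17 and 1.2 against NO_AG, limma adjusted p = 0.394 and 0.384). Leaving out NO_AG mouse 1 or 2 moved the AG change between -0.17 and 2.51, so the macrophage data do not fix a direction for Cd86.

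In alpha-beta T-like cells Cd86 rose in AG and in AG_CPI mice against NO_AG. The levels were 0.194, 0.147, 0.504, 0.327, 0.618 and 0.870, from 13, 21, 193, 102, 177 and 315 UMIs. The 3 groups did not overlap: both AG mice were above both NO_AG mice, and both AG_CPI mice above both AG mice. The log2 change was 0.98 (SE 0.22, limma adjusted p = 0.0445) for AG and 1.69 (SE 0.22, adjusted p = 0.00136) for AG_CPI against NO_AG, with pooled UMI ratios of 2.6 (1.82 to 3.83) and 4.41 (3.11 to 6.44). AG_CPI against AG was 0.71 (95% interval 0.22 to 1.2, adjusted p = 0.412). Cd86 was the 1 ligand of 5 called in T cells for AG, where 2.73% of 7327 genes were called. It was 1 of 2, with Cd80, for AG_CPI against NO_AG, where 6.11% of genes were called. For AG_CPI against AG 0 of 5 were called, where 0.232% of genes were and 2 ligands, Cd80 and Cd86, had an unadjusted p under 0.05. The AG_CPI call held under every setting run (adjusted p of 0.00026 to 0.048, and 0.00843 without AG_CPI mouse 1), whereas the AG call ended under 5 of them (0.054 to 0.59) and when AG mouse 1 or either NO_AG mouse was left out (0.117 to 0.136).

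RNA of other cells was measured beside T cell Cd86. The gamma-delta T-like class, from the same libraries, had 0 Cd86 UMIs in 515, 343, 238 and 112 cells of NO_AG and AG mice, so that shares of up to 0.583% to 2.68% are possible, at median depths of 1934 to 2760 UMIs. In alpha-beta T-like cells 4.86%, 3.74%, 14.3%, 9.56%, 13% and 20.9% had a Cd86 UMI, at median depths of 2280 to 2808. After thinning to 1500 UMIs the shares were 2.02%, 2.49%, 6.90%, 5.05%, 8.47% and 11.2%. The thinned shares of the groups did not overlap, whereas those of AG and AG_CPI mice had overlapped before thinning. Of the T cells with a Cd86 UMI, 3.05%, 6.74%, 2.00% and 2.33% in the AG and AG_CPI mice also had a UMI of a C1q gene, against 2.04%, 5.23%, 2.09% and 3.58% of those without Cd86. With every T cell that had a C1q or Lyz2 UMI left out, Cd86 was 0.196, 0.145, 0.505, 0.339, 0.613 and 0.877, and the order of the groups was the same. The summed level of 16 macrophage markers in the class was 1.87, 1.42, 2.42, 5.50, 5.29 and 3.82, highest in AG mouse 2, whose Cd86 was the lower of the 2 AG mice. It came from 6 to 14 detected markers, with Fcgr1, Adgre1, Mrc1 and Pf4 at 0 in AG_CPI mouse 2. The part of RNA from other cells in T cell Cd86 was not tested further.

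The make-up of the T cell class also changed. NO_AG mice had 2 and 8 CD8-gated cells whose only beta-chain segment with a UMI was Trbv13-3, the segment of the P14 receptor, and AG and AG_CPI mice had 421, 405, 581 and 709. In those cells Cd86 was 0.771 and 0.512 in AG mice, within the AG_CPI values of 0.574 and 0.958 or just below them. CD8-gated cells with another beta segment and no Trbv13-3 had 0.392, 0.188, 0.236, 0.161, 0.550 and 0.584. There AG mice were no higher than NO_AG mice, and the AG_CPI levels were above both groups, from 17 and 33 UMIs. The shares of these cells with a Cd86 UMI overlapped, at 11.4%, 5.65%, 6.80%, 2.40%, 8.89% and 15.8%. Cd80 in the same cells was 0.0821, 0.0281, 0.0156, 0, 0.403 and 0.179, from 2, 2, 2, 0, 14 and 14 UMIs, again higher in AG_CPI mice. In the CD8 gate as a whole, Cd86 rose in AG_CPI against NO_AG mice (log2 1.41, SE 0.24, limma adjusted p = 0.00813, where 3.56% of 7183 genes were called), and the AG change was 0.83 (adjusted p = 0.113, where 2.26% of genes were called). The clusters that held most T cells differed as well. A cluster led by Cd8a, Cd8b1 and Trbv15 had 151 and 363 cells of the NO_AG mice. A Gzma- and Trbv13-3-led cluster had 496 and 510 of the AG_CPI mice against 1 and 0 of the NO_AG mice. In the AG and AG_CPI mice Cd86 was 0.199, 0.102, 0.475 and 0.139 in the first and 1.18, 0.722, 0.722 and 1.00 in the second, higher in the second within each mouse. With clusters present in every library weighted equally, the AG_CPI call of Cd86 held and the AG call did not (adjusted p = 0.59).

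**Figure D5:**
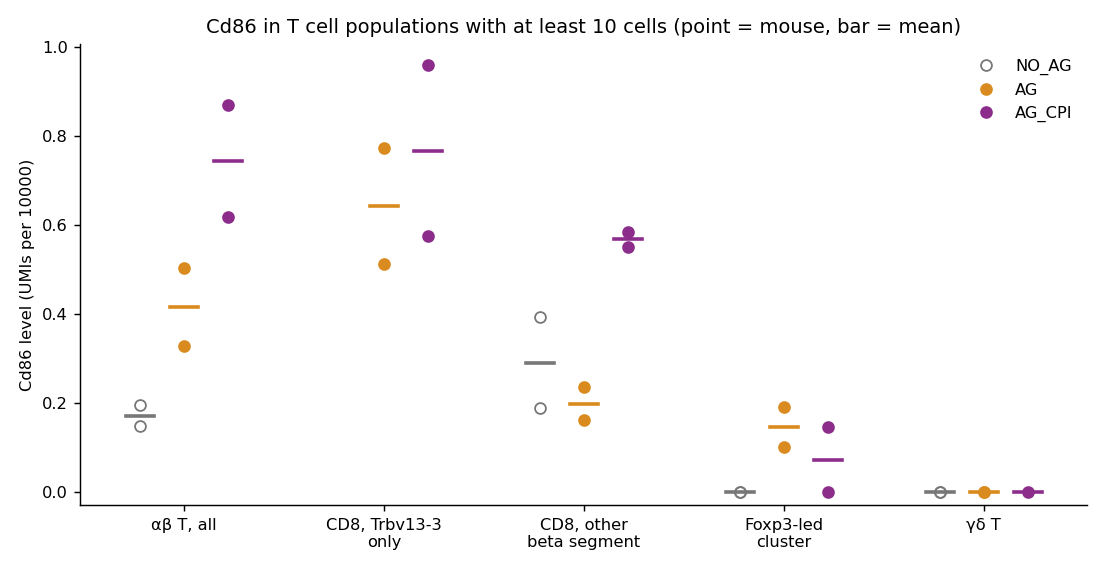
Cd86 level (UMIs per 10000, y axis) in T cell populations with at least 10 cells (x axis); each point is 1 mouse and each bar a mean. The alpha-beta T cell values are 0.194 and 0.147 in NO_AG and 0.618 and 0.870 in AG_CPI mice, and gamma-delta T cells are at 0 throughout.

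The Foxp3-led cluster, which kept no class name and was led by regulatory T cell genes, had Cd86 levels of 0, 0, 0.191, 0.102, 0 and 0.146, below the alpha-beta T-like class in every mouse. Its Cd80 levels were 0.410, 0.201, 0.248, 0.323, 0.8 and 0.252, above that class in every mouse. The Cd80 ranges overlapped between the groups, with AG_CPI mouse 1, at 6 UMIs in 32 cells, the highest. The order of Cd80 and Cd86 between the T cell populations thus differed, and this order was not tested.

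Lgals9, which encodes galectin-9, had UMIs in all 5 classes. Its keratinocyte levels were 1.05, 0.723, 1.98, 1.73, 1.08 and 1.38, from 1320, 830, 1566, 1184, 103 and 180 UMIs. Both AG mice were above all other mice, and AG_CPI mouse 1 was barely above NO_AG mouse 1. The pooled UMI ratio was 2.16 (2.04 to 2.28) for AG and 1.58 (1.39 to 1.79) for AG_CPI against NO_AG, counting error alone. By limma no change passed: 1.08 (SE 0.22, 95% interval 0.56 to 1.59, adjusted p = 0.156) for AG against NO_AG, 0.56 (0.05 to 1.07, adjusted p = 0.261) for AG_CPI against NO_AG and -0.52 (adjusted p = 0.541) for AG_CPI against AG. Lgals9 was the 1 ligand that passed the filter in keratinocytes, and 0.539%, 0.882% and 0% of tested genes were called in these 3 comparisons. Lgals9 had an unadjusted p under 0.05 in all 3, as did 752 genes in the last. Thinned to 1500 UMIs, the share of keratinocytes with a UMI was 13.4%, 8.21%, 23.8%, 22.1%, 13.9% and 16.9%, in the same order of groups. In gamma-delta T-like cells of NO_AG and AG mice it was 7.38%, 7%, 14.3% and 4.46%, lower in each of these mice. The few gamma-delta T-like cells of AG_CPI mice were left out of this comparison, so it does not cover that group.

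Lgals9 was higher in AG than in NO_AG mice in each of the 4 keratinocyte clusters with at least 10 cells in all 6 libraries. In the Sostdc1- and Ccl27a-led cluster Lgals9 was 2.05, 2.24, 3.79, 3.49, 2.31 and 3.64. In the Sox9- and Krt15-led cluster, of hair follicle type, it was 0.536, 0.383, 1.23, 2.06, 0.646 and 1.36. In the Cst6- and Krt79-led cluster it was 0.314, 0.359, 0.778, 0.626, 0.231 and 0.546, and in the Krt10- and Krt1-led cluster, of differentiating cells, 0.25, 0.175, 0.903, 1.44, 0.290 and 0.548. In all of these both AG mice were above both NO_AG mice, and AG_CPI mouse 1 was below both AG mice. With shared clusters weighted equally the AG change was 1.15 (limma adjusted p = 0.140).

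In the other 4 classes no Lgals9 change passed either. Macrophage levels were 1.25, 1.28, 2.17, 1.97, 1.66 and 1.53, with AG mice highest and NO_AG mice lowest (log2 0.81 for AG, 95% interval 0.29 to 1.33, limma adjusted p = 0.0720). Dendritic levels were 0.611, 0.798, 0.951, 1.01, 0.468 and 0.772, and the AG_CPI mice overlapped the NO_AG mice (log2 0.11, limma adjusted p = 0.853). Alpha-beta T-like levels were 1.07, 1.68, 1.65, 1.67, 1.41 and 1.72, with all groups overlapping (log2 0.39 and 0.28 against NO_AG, adjusted p = 0.376 and 0.471). Fibroblast-like levels were 0.511, 0.467, 0.590 and 0.890 in NO_AG and AG mice (log2 0.48, 95% interval -0.40 to 1.36, adjusted p = 0.869, where 0.188% of 4778 genes were called). The AG_CPI mice had too few fibroblasts to test. The keratinocyte change in AG did not differ detectably from that in macrophages (difference 0.26, 95% interval -0.59 to 1.12, limma adjusted p = 0.765, where 0.0173% of genes were called) or in alpha-beta T-like cells (0.69, 0.03 to 1.35, adjusted p = 0.40, where 0.694% were).

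Some single cells held several B7-family transcripts. Of the dendritic/Langerhans-like cells with a Cd274 UMI (3, 2, 9, 27, 7 and 11 cells), 2, 0, 6, 20, 7 and 6 also had Cd86, and 4, 12, 1 and 4 in the AG and AG_CPI mice had Pdcd1lg2. Of the macrophages with a Cd274 UMI (2, 1, 45, 192, 104 and 90), 0, 0, 23, 84, 43 and 47 also had Cd86. In keratinocytes, Cd274 cells (27, 32, 37, 67, 4 and 7) had a UMI of Cd80 or Cd86 in at most 1 cell per mouse. These numbers stand beside the share of all cells of each class with a Cd86 UMI, which was 44.7% to 75.2% in dendritic/Langerhans-like cells, 38.0% to 47.8% in macrophages of AG and AG_CPI mice and at most 1.78% in keratinocytes. An association of the 2 transcripts within a class was not tested.

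Genes that work beside the ligands were read from 4 lists. Of 12 genes of dendritic cell maturation, 6 rose and 0 fell in dendritic/Langerhans-like cells of AG against NO_AG mice (4.33% of all genes called), with a list median of 1.44 against -0.03 over all genes tested, and 10 rose and 1 fell in AG_CPI mice (18.1% of all genes called, median 2.23 against -0.06). Ccr7, the receptor that guides dendritic cells to lymph nodes, had levels of 0.102, 0.480, 2.76, 2.70, 3.83 and 6.59 (log2 3.16 and 4.18, limma adjusted p = 0.00393 and 0.000249). Cd83, a surface marker of mature dendritic cells, rose by 1.5 and 2.23 (adjusted p = 0.0086 and 0.000333). Il12b, a subunit of IL-12, was 0.487 and 0.0386 in AG and 4.69 and 2.62 in AG_CPI mice (log2 3.82, limma adjusted p = 0.0205), the 1 list gene that rose between those groups, while Cd63 fell by 1.57 (adjusted p = 0.0167). The Ccr7-led cluster held 2, 4, 9, 16, 5 and 6 of the dendritic cells, and the part of this make-up in the list's changes was not tested.

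The list of interferon-gamma signalling and PD-L1 stabilisers, with 18 of its 19 genes in the table, had 5 genes higher and 0 lower of 17 tested in dendritic/Langerhans-like cells in AG mice, and 11 and 0 in AG_CPI mice, against NO_AG, where 4.33% and 18.1% of all genes were called. In macrophages 5 rose and 1 fell in AG, and 6 rose and 1 fell in AG_CPI mice, beside 6.12% and 7.59% of all genes called. Cxcl9, an interferon-induced chemokine, had macrophage levels of 0.511, 0.804, 22.7, 14.6, 27.6 and 31.0 (log2 4.76 and 5.44, limma adjusted p = 0.00778 and 0.00245). In keratinocytes 4 rose and 0 fell of 17 in AG, and 3 rose and 1 fell in AG_CPI mice (0.539% and 0.882% of all genes called), with Cxcl9 at 0.508 and 0.612, 3.98 and 4.49, and 3.50 and 3.40 (log2 2.79 and 2.55, limma adjusted p = 0.00076 and 0.00151). The dendritic markers given above for the keratinocyte class, 3.27 and 5.86 in NO_AG and 8.91 to 28.3 in the other mice, were higher in the same mice, and their part in this list was not tested. The gene that fell in keratinocytes was Ifngr1, a chain of the interferon-gamma receptor (log2 -1.60, limma adjusted p = 0.0372). Interferon-induced genes were thus called in keratinocytes, where Lgals9 was not. In fibroblasts 0 of 10 tested genes of the list were called by limma (4 at an unadjusted p under 0.05, 0.188% of all genes called), and in alpha-beta T-like cells 0 of 14 in AG (5 unadjusted) and 1 in AG_CPI mice (B2m, the light chain of MHC class I, log2 0.45, adjusted p = 0.0454).

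The receptors of the ligands were read in alpha-beta T-like cells, where 8 of 17 tested genes rose and 0 fell in AG mice and 7 rose and 2 fell in AG_CPI mice against NO_AG, where 2.73% and 6.11% of all genes were called. Pdcd1, which encodes PD-1, had levels of 0.1, 0.119, 1.75, 2.02, 2.08 and 2.43 (log2 3.31 and 3.54, limma adjusted p = 1.78e-06 and 7.84e-07). Havcr2, which encodes TIM-3, was 0.0710 and 0.141, 1.43 and 2.19, and 2.46 and 2.97 (log2 3.27 and 3.84, adjusted p = 1.84e-05 and 3.89e-06). Cd40lg, the ligand of CD40, fell by 2.18 (adjusted p = 0.00189) and Cd5 by 0.65 (adjusted p = 0.0439) in AG_CPI mice. Of the list of other ligands, 2 of 8 tested rose in dendritic/Langerhans-like cells in AG mice, Lgals3 (galectin-3, log2 2.22, limma adjusted p = 0.000578) and Cd40 (log2 2.02, adjusted p = 0.0141), and Icosl joined them in AG_CPI mice (log2 2.01, adjusted p = 0.0416), where 4.33% and 18.1% of all genes were called. In macrophages 2 of 10 rose in both groups, again Lgals3 and Cd40, where 6.12% and 7.59% were.

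Over the 28 class-by-mouse points with at least 10 cells, the levels of Cd274 and Cd80 had a Pearson r of 0.84 on the log2 scale, Cd274 and Pdcd1lg2 0.79, and Cd80 and Cd86 0.88. Lgals9 had r of 0.34 with Cd274 and 0.07 with Cd86. The points share mice, depth and cell classes, so these values describe the table alone. Among 11506 genes, the patterns most like Cd274 were Adam8 (0.95), Gna13 (0.91) and Bcl2a1a (0.90). Those most like Pdcd1lg2 were Bcl2a1d (0.93), Prr5l (0.90) and Traf1 (0.90), and those most like Cd80 were Tnip3 (0.91), Gpr132 (0.90) and Sp140 (0.90). Cd86 was most like Irf8 (0.95), a transcription factor of dendritic cells, then Arpc3 (0.94) and Napsa (0.92). Lgals9 was less closely matched, with H2-K1 (0.77), a classical MHC class I gene, Casp1 (0.75) and Capg (0.75).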

How the data were processed

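Skin cells of 6 mice were measured, 1 library per mouse and 2 mice per group. Reads were processed with Cell Ranger 3.1 on mm10, per the submitters' processing notes. Each deposited value is the log10 of UMIs per 10000 of the cell's UMIs, plus 1. No header states this unit, which was read from the values: after inversion, 100% fell on whole UMIs. Between 95.4% and 96.7% of a library's UMIs lie in the deposited genes, and cells have 1501 to 14995 UMIs. How the authors filtered cells is not given in the sources used here.

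Cells with under 200 genes or over 20% mitochondrial UMIs were dropped. 666 predicted doublets (Scrublet in scanpy 1.11.5, 0.8% per 1000 cells) and 51 cells failing the filters were removed, which left 20461. Clustering used 2000 variable genes without the 5 ligands, 30 components, 15 neighbours and Leiden resolution 1, with a second clustering within phagocytes and lymphocytes. The 69 clusters were named from marker lists by a rule settled after the clusters had been seen, and 8 clusters (9.02% of cells) stayed unnamed. The CD8 gate took those alpha-beta T-like cells that had Cd8a or Cd8b1 UMIs but lacked Cd4.

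Class means per mouse were scaled by trimmed means of M-values and converted to log2 after adding 0.1. Genes needed 10 UMIs and a mean of 0.1 in at least 2 libraries, and a library needed 10 cells. limma 3.58.1 in R 4.3.3 fitted all groups at once (limma-trend), with Benjamini-Hochberg adjustment over all genes and a threshold of 0.05. The deposited unit is a normalized log10 value, so limma was the chosen test, and a count model on the recovered UMIs was not run. Intervals of shares and ratios are exact or Wilson and cover counting error only. Replicate numbers did not pair the mice: deviations of same-numbered mice correlated at -0.23 to 0.20. Named genes of each list were up to 4 that rose and 4 that fell with the smallest p, among those called whose mice did not overlap, and the 3 best correlates of each ligand. Some named items are not reported here. The ligands and lists were chosen with earlier results of these data known.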

Additional observations from a re-analysis of the deposited data

How the results depend on the processing

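The values here are the numbers of the 5 ligands called, or limma log2 changes. In macrophages the AG count of 0 became 2 at Leiden resolution 0.5 and 1 with a per-cell marker gate or with summed UMIs, and 0 to 5 when 1 mouse was left out. The AG_CPI count of 1 became 0 with the deposited scaling, without the filter on low values, with the gate or with the replicate block, and 0 to 4 when 1 mouse was left out. In dendritic/Langerhans-like cells the AG count of 2 became 0 without the filter or with a pseudocount of 0.5, and 1 with one clustering, doublets kept or the Langerhans clusters left out (0 to 1 when 1 mouse was left out). The AG_CPI count of 4 became 2 without the Langerhans clusters. In alpha-beta T-like cells the AG count of 1 became 0 with the deposited scaling, no filter, a pseudocount of 0.5, the replicate block or shared clusters (0 to 1 when 1 mouse was left out), and the AG_CPI count of 2 became 1 with no filter, the gate, the block or shared clusters (1 to 2).

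The block on replicate numbers changed no ligand call other than these and the AG call of Cd80 in dendritic/Langerhans-like cells, which it added (adjusted p = 0.038). Of 10 called changes, 3 were called in all their alternatives; over the 138 alternatives 100 kept the call, 38 lost it and 0 reversed. Of 522 alternatives of the 39 changes not called, 18 became called and 29 changed sign. The sign changes were, for Cd274 in alpha-beta T-like cells, AG_CPI against AG -0.0032 with shared clusters and AG_CPI against NO_AG -0.069 with the gate and -0.19 with shared clusters. Against AG, AG_CPI values of Cd80 were -0.0399 in dendritic cells without Langerhans clusters and -0.0157 in macrophages with summed UMIs, of Cd86 -0.00683 in macrophages with summed UMIs, and of Pdcd1lg2 in T cells -0.0507 with the gate and -0.0577 with shared clusters. Dendritic Lgals9 was -0.0606 for AG without Langerhans clusters. Its AG_CPI against NO_AG values were -0.28 at resolution 0.5, -0.18 with the deposited scaling and -0.25 with the gate. They were -0.57 with doublets kept and -0.19 without Langerhans clusters. The counts above leave out differences between classes. Among those, the AG_CPI against AG difference of Lgals9 between keratinocytes and dendritic cells changed sign, to 0.0551 with the deposited scaling. The causes were not tested.

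Leaving out 1 mouse moved Cd274 from -0.46 to 0.0523 (T cells, AG against NO_AG) and from -0.0382 to 0.84 (macrophages, AG_CPI against AG). In macrophages it moved Cd80 from -0.36 to 0.51 and Pdcd1lg2 from -1.27 to 0.26 (AG_CPI against AG), and Cd86 from -0.17 to 2.51 (AG), -0.14 to 2.54 (AG_CPI) and -0.16 to 0.22 (AG_CPI against AG). In T cells it moved Lgals9 from -0.23 to 0.0253 (AG_CPI against AG) and -0.0092 to 0.57 (AG_CPI against NO_AG), and Pdcd1lg2 from -0.0445 to 0.11 (AG_CPI against AG). Dendritic Lgals9 moved from -0.22 to 0.48 (AG_CPI against NO_AG). One clustering gave no macrophage test against NO_AG, and fibroblasts of AG_CPI mice (8 and 7 cells) allowed none. The numbers of all genes called ranged over the alternatives from 0 to 3259 around 408 in macrophages for AG and from 92 to 1782 around 1223 in dendritic cells for AG_CPI.

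Low counts limit Cd274, Pdcd1lg2 and Cd80 in the NO_AG mice. Levels under the gate moved by more than the SD between the 2 mice of the group in 37 of 140 cases, and shares after thinning in 104. NO_AG macrophages, at 25 and 18 cells, limit every macrophage comparison. With 2 mice a group, the adjusted values rest on the spread that limma shares across genes, and the labels do not say whether the mice were littermates.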

Other observations

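The 5 ligands were also counted in classes outside the comparisons. Basophil-like cells, 28 of them in AG mouse 2 and at most 3 in any other library, had Cd274 at 2.15 and Pdcd1lg2 at 1.96 UMIs per 10000 in that mouse, from 11 and 12 UMIs. NK/ILC1-like cells had Pdcd1lg2 in all 4 NO_AG and AG mice, at 0.448 and 0.340 in NO_AG and 0.830 and 0.813 in AG mice, from 26, 13, 11 and 6 UMIs, and the AG_CPI mice, with 10 and 16 cells, had 0 and 1.09. A cluster led by Ccr6 and Il17a, which the marker rule had named ILC2-like against those leading genes, had Pdcd1lg2 at 0.279, 0.313, 0.395 and 0 in the NO_AG and AG mice. A cluster led by Tagln, Gnmt, Gjb2 and Cxcl14, which the rule had named mural-like although some of these are epithelial genes, had Lgals9 at 0.679 and 0.687 in NO_AG and 2.30 and 3.52 in AG mice, from 84, 77, 15 and 31 cells. Endothelial-like cells had Lgals9 at 2.07 and 2.69 in the 37 and 12 cells of the NO_AG mice. Sebocyte-like cells held 56 and 24 Cd274 UMIs in NO_AG mice, 33.3% and 18.5% of that gene's UMIs there, at levels of 0.156 and 0.103. None of these values was tested.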
